A study of Mus musculus with 11 samples.

Results

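The genes described are 36 genes of glucose use and of the response to low oxygen, taken by name from a table of 23224 genes measured by RNA sequencing in 11 libraries of mouse colon cancer organoids. They fall into 23 genes of glycolysis, glucose and lactate transport and their regulators, and 13 other genes of the hypoxia response. All 36 names were found in the table. 35 of them passed the filter on low counts and entered the test, in which 13720 genes were tested. The neuronal enolase gene Eno2 did not pass, with 0 to 8 reads in every library.

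Organoids are epithelial cells grown as small hollow bodies in a gel. All 11 libraries carry the AKP genotype, a cancer genotype whose alleles the labels do not spell out. The groups were naive AKP organoids that had not been in a mouse (3 libraries), AKP organoids grown again from primary tumours of immunocompetent C57Bl6 mice (3 libraries), and AKP organoids grown again from primary tumours of RAG2KO mice, which lack T and B cells (3 libraries). The tumours came from organoids placed in the colon through a colonoscope, and the cultures were passaged until cancer cells alone remained. A constitutive SOX17OE line and a doxycycline-inducible SOX17OE line, both naive AKP organoids with a lentiviral construct for the transcription factor SOX17, had 1 library each, and the sources used here do not say whether doxycycline was given before RNA was taken. The labels number each tumour-derived library on its own but do not say whether that number is a mouse or a culture, so the p-values measure the spread between these libraries, part of which may be technical. The RNA of every group was taken from cultured organoids, not from tumours in the mouse.

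Glycolysis splits glucose into pyruvate in the cytosol, and cells that grow fast in culture or in tumours often turn much of that pyruvate into lactate and export it. Hypoxia-inducible factor (HIF) is a transcription factor whose alpha subunit is hydroxylated by prolyl hydroxylases when oxygen is present, bound by the VHL protein and degraded. When oxygen falls the subunit persists and switches on glucose transporters, glycolytic enzymes and genes of blood vessel growth, pH balance and mitochondrial turnover; the gene of the subunit itself is controlled mostly at the level of its protein, which RNA sequencing does not measure.

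HIF binds a short core, ACGTG or GCGTG, on either strand. The 250 bases before the transcription start of 6 genes on which the results turn most are given 5′ to 3′ on the strand of the gene, from the RefSeq promoter table of build GRCm38.p6, with matches to the core in capitals. They show a glucose transporter and a hexokinase with lower levels in some groups (Slc2a1, Hk2), a lactate exporter and a lactate dehydrogenase with higher ones (Slc16a3, Ldhb), and a pair of hypoxia-response genes that moved in opposite directions in the SOX17OE lines (Car9, Bnip3).
Slc2a1, chr4:119108495-119108744, plus strand: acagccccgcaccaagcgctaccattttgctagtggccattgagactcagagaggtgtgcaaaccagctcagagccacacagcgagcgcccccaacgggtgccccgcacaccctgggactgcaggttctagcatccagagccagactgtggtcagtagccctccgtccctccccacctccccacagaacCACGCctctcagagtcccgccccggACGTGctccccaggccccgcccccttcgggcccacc
Hk2, chr6:82774455-82774704, minus strand: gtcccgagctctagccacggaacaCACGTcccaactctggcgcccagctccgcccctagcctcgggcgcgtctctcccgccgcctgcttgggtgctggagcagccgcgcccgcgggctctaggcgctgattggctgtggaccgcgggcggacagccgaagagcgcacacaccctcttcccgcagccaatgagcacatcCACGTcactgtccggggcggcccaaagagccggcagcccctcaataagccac
Slc16a3, chr11:120948817-120949066, plus strand: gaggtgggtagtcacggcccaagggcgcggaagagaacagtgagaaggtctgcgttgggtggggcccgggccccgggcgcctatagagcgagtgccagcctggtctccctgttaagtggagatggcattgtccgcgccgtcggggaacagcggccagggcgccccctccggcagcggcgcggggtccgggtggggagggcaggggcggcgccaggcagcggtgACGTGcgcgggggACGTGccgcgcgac
Ldhb, chr6:142507958-142508207, minus strand: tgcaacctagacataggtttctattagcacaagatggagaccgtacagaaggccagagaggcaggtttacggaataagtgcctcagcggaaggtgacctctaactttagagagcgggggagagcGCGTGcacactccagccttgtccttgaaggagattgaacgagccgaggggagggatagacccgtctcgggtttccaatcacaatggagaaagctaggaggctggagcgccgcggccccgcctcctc
Car9, chr4:43506776-43507025, plus strand: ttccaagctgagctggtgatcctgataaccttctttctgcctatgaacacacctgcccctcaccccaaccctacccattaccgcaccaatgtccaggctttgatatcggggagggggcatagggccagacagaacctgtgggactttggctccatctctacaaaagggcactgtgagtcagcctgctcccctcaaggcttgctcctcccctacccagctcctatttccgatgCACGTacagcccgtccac
Bnip3, chr7:138909507-138909756, minus strand: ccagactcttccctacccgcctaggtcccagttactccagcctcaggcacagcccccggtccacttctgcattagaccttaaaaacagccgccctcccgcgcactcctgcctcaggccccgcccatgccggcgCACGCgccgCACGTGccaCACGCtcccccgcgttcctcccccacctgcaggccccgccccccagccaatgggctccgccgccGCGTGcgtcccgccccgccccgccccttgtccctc

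The Slc2a1 stretch held 1 ACGTG and 1 GCGTG, the Hk2 and the Slc16a3 stretch 2 ACGTG each, the Car9 stretch 1 ACGTG, and the Ldhb stretch 1 GCGTG and no ACGTG. In Bnip3 a palindrome reads as ACGTG on both strands, so its 5 matches lie at 4 separate places. The table gives windows of 250 bases before to 50 bases after each start for 35 of the 36 genes, 51 windows in all, and none for Ndrg1. ACGTG stood in 27 of these 51 windows (52.9%), in 17 windows of glycolysis genes and 10 of hypoxia-response genes. Over the windows of all genes in the table it stood in 6447 of 32851 (19.6%). By gene, 24 of 35 (68.6%) had a window with ACGTG, against 5886 of 27025 genes (21.8%). Many of these genes were listed because they are known as HIF targets, and the count describes the list. The cause of its higher share was not tested. A match is a run of letters and not a measured binding site.

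The libraries held 14109182 to 22154456 counts. Sox17 itself had 1 to 3 reads in each naive library, 12.4 to 74.3 CPM (counts scaled to a common library size) in the C57Bl6 and 15.4 to 24.4 CPM in the RAG2KO libraries, and reached 72.7 CPM in the constitutive and 4.78 CPM in the inducible line. Counts of Rn45s, from which ribosomal RNA is cut, made up 6.56 to 8.54% of the RAG2KO libraries and 6.39% of the constitutive line, against 2.42 to 4.99% of the naive libraries, 2.21 to 3.77% of the C57Bl6 libraries and 3.71% of the inducible line. The 8 epithelial marker genes summed to 9623 to 11451 CPM in the naive, 8871 to 11133 in the C57Bl6, 9629 to 10360 in the RAG2KO and 6512 to 8257 in the SOX17OE libraries. The sums of the 8 fibroblast markers stayed at 0.286 to 0.524, 0.996 to 2.24, 0.811 to 10.2 and 0.699 to 6.80 CPM in the same order, and those of the 6 endothelial markers at 2.37 to 3.91, 2.62 to 7.18, 2.29 to 5.84 and 4.55 to 12.3 CPM. The sums of the 12 immune markers were 19.9 to 41.3, 6.51 to 12.9, 15.6 to 29.2 and 16.0 to 17.7 CPM. Most of each immune sum came from S100a8 and Cd68, in naive libraries 16.4, 13.5 and 30.2 CPM and 3.29, 5.70 and 10.5 CPM. Ptprc had at most 1.01 CPM in any library. Of the T cell markers Cd3g was at 0 in every library, Cd3e reached at most 0.175 CPM and Cd8a had 0.0524 to 0.350 CPM. Col3a1 made up most of the highest fibroblast sums, with 7.07 CPM in RAG2KO library 2 and 5.24 CPM in the constitutive line. In such bulk samples fewer cells of a type and less RNA per cell cannot be told apart.

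Levels are in CPM of the scaled library size and are not divided by gene length, so they are compared between libraries and not between genes. Fold changes, on the log2 scale, come from edgeR's quasi-likelihood test fitted to all 11 libraries in 5 groups, with Benjamini-Hochberg adjustment over the 13720 genes, and a gene was called at an adjusted p under 0.05. Some counts below are of glycolysis or hypoxia-response genes at an unadjusted p under 0.05. The share of all genes at that threshold was not computed, so these counts are a description only. All comparisons against naive share the same 3 naive libraries. The SOX17OE comparison sets the mean of both lines against naive, and each single library is assumed to vary like the replicated groups.

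In the C57Bl6 tumour-derived organoids 4 of 22 glycolysis genes were called against naive (18.2%), 2 higher and 2 lower, where 15.3% of all genes tested were called (9.5% higher, 5.85% lower). The lactate exporter gene Slc16a3 was 5.21-fold higher, the muscle-type phosphofructokinase gene Pfkm rose, and the platelet-type gene Pfkp and the kinase gene Pdk1 fell. Of the 13 hypoxia-response genes 1 was called (7.69%), Car9, which was 3.78-fold lower. The C57Bl6 libraries lay above all naive ones in 3 and below in 3 of the glycolysis genes, and below in 4 of the hypoxia-response genes (19.9% and 16.9% of all genes). Median changes were -0.05 in both lists and 0.02 over all genes. Only the Slc16a3 call held when each library in turn was left out. Leaving out each of the 11 libraries in turn gave 0 to 3 called hypoxia-response genes and 1 to 4 called glycolysis genes. Where the hypoxia-response count was 0 in edgeR, 3 to 5 of the 13 genes had an unadjusted p under 0.05. On all 11 libraries the DESeq2 Wald test called 3 and limma voom 6. Voom also called more of all genes than edgeR did, and these counts are not set against the 15.3% of edgeR.

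In the RAG2KO tumour-derived organoids 10 of 22 glycolysis genes were called against naive (45.5%), 4 higher and 6 lower, where 29.2% of all genes tested were called (16% higher, 13.3% lower). The glucose transporter gene Slc2a1, both hexokinase genes Hk1 and Hk2, the liver-type phosphofructokinase gene Pfkl, the enolase gene Eno1 and the lactate importer and exporter gene Slc16a1 fell. Pfkm, the aldolase gene Aldoc, the lactate dehydrogenase gene Ldhb and Slc16a3 rose. Of the 13 hypoxia-response genes 3 were called (23.1%): Bnip3 rose, and Egln1 and Ndrg1 fell. The RAG2KO libraries lay above all naive ones in 6 and below in 7 of the glycolysis genes, and below in 5 of the hypoxia-response genes (24.8% and 22.4% of all genes). Median changes were -0.10 for the glycolysis genes, -0.09 for the hypoxia-response genes and 0.02 over all genes. The RAG2KO and naive libraries did not overlap in their Rn45s share, so that share and the recipient cannot be told apart. With the share as a covariate none of the 13 calls held in edgeR, 7 glycolysis and 2 hypoxia-response genes had an unadjusted p under 0.05, and 148 of all genes were called.

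Set against the C57Bl6 tumour-derived organoids, the RAG2KO organoids had 8 of 22 glycolysis genes called (36.4%), 2 higher and 6 lower, where 24% of all genes tested were called (11.8% higher, 12.2% lower). Slc2a1, Hk2, Pfkl, Slc16a1, Slc16a3 and the regulator gene Pfkfb3 were lower, and Aldoc and Ldhb were higher. Of the hypoxia-response genes 2 of 13 were called (15.4%), Bnip3 higher and Ndrg1 lower. The RAG2KO libraries lay above all C57Bl6 ones in 2 and below in 7 of the glycolysis genes, and above in 1 and below in 2 of the hypoxia-response genes (19.4% and 20.4% of all genes). Median changes were -0.05 for the glycolysis genes, -0.19 for the hypoxia-response genes and -0.0011 over all genes. The Rn45s share did not overlap between these groups either: with it as a covariate 0 of these 10 genes were called in edgeR, 3 glycolysis and 0 hypoxia-response genes had an unadjusted p under 0.05, and 2 of all genes were called.

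In the SOX17OE lines 7 of 22 glycolysis genes were called against naive (31.8%), 2 higher and 5 lower, where 12.7% of all genes tested were called (6.77% higher, 5.92% lower). Slc2a1, Hk2, Pfkl, Slc16a1 and Pfkfb3 fell, and Pfkm and Ldhb rose. Of the 13 hypoxia-response genes 6 were called (46.2%): Car9, Vegfa, Adm and Ndrg1 fell, and Bnip3 and Hif1a rose. Median changes were -0.34 for the glycolysis genes, -0.77 for the hypoxia-response genes and -0.0070 over all genes. Both lines lay below all 3 naive libraries in 14 of the 22 glycolysis genes and 9 of the 13 hypoxia-response genes, where 23% of all genes did so, and above them in 3 and 2 (25.3% of all genes). Without the constitutive line, 1 glycolysis gene, 0 hypoxia-response genes and 85 of all genes were called in edgeR, with 8 hypoxia-response genes at an unadjusted p under 0.05; without the inducible line the counts were 8, 2 and 1662. With the Rn45s share as a covariate 1 glycolysis gene (Slc2a1) and 1 hypoxia-response gene (Car9) were called.

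**Figure D1:**
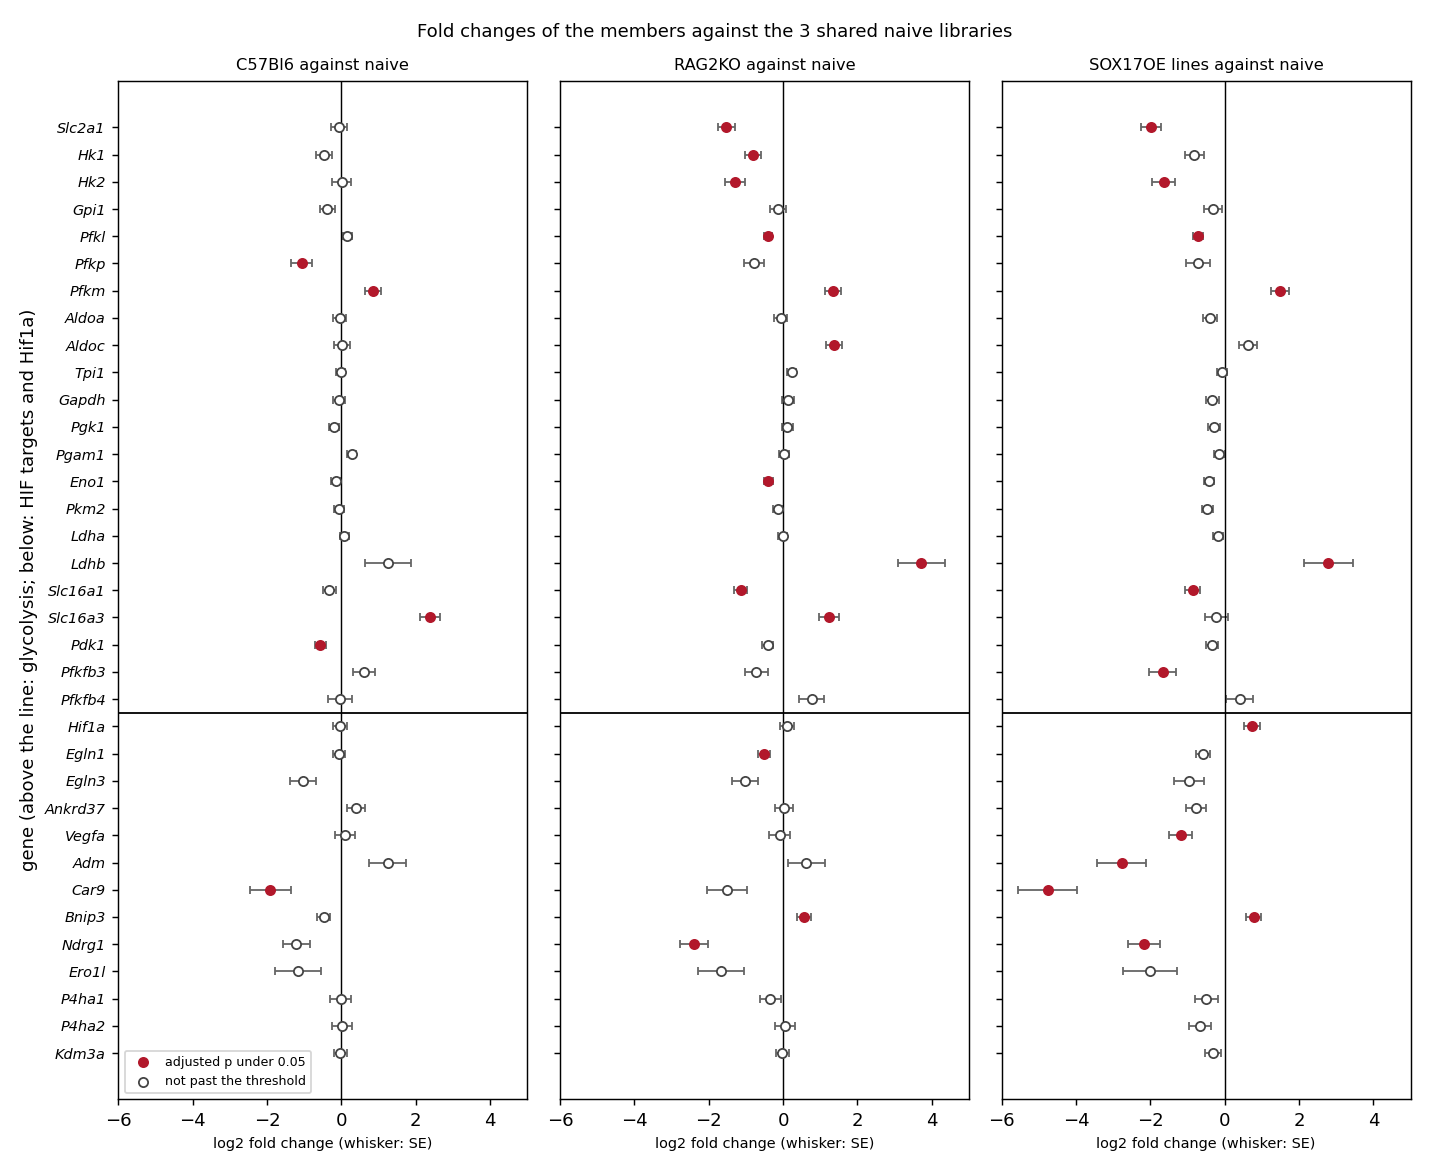
Log2 fold change of each of the 35 tested genes in 3 comparisons against the same 3 naive libraries, with whiskers of 1 standard error; filled points have an adjusted p under 0.05 (edgeR). Most genes of the lower part of glycolysis lie near 0 in the C57Bl6 and RAG2KO comparisons, and several lie below 0 in the SOX17OE comparison. Slc16a3 stands at 2.38 in the C57Bl6 comparison, Ldhb at 3.72 in the RAG2KO comparison and Car9 at -4.77 in the SOX17OE comparison.

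Slc2a1 encodes GLUT1, the transporter through which most dividing cells take up glucose. Its level was 278, 325 and 492 CPM in the naive libraries, 426, 303 and 319 CPM in the C57Bl6 libraries and 125, 145 and 111 CPM in the RAG2KO libraries, with 90.7 CPM in the constitutive and 93.6 CPM in the inducible line. All 3 RAG2KO libraries and both lines lay below every naive and C57Bl6 library, and the naive and C57Bl6 libraries overlapped. Slc2a1 fell by 1.52 in RAG2KO against naive (SE 0.22, adjusted p = 0.00151), by 1.46 in RAG2KO against C57Bl6 (adjusted p = 0.00354) and by 1.99 in the SOX17OE lines (SE 0.26, adjusted p = 0.00305). Each of these calls held when any library was left out. With the Rn45s share as a covariate both RAG2KO calls of Slc2a1 were lost (adjusted p = 0.184 and 0.549). The same was true of every RAG2KO call of the members described below. Between C57Bl6 and naive the Slc2a1 difference was -0.06 (SE 0.22, adjusted p = 0.884).

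Hexokinases add the phosphate that traps glucose in the cell; Hk1 is the widespread form and Hk2 the form that hypoxia and insulin are known to induce. The Hk2 level was 127, 173 and 206 CPM in naive, 193, 121 and 192 CPM in C57Bl6 and 62.3, 92.6 and 51.5 CPM in RAG2KO libraries, with 49.1 CPM in the constitutive and 59.7 CPM in the inducible line. As for Slc2a1, the RAG2KO and SOX17OE libraries lay below all others. Hk2 fell by 1.29 in RAG2KO against naive (SE 0.27, adjusted p = 0.00711), by 1.29 against C57Bl6 (adjusted p = 0.00954) and by 1.64 in the SOX17OE lines (SE 0.31, adjusted p = 0.0128), the last without the constitutive line at -1.50 (adjusted p = 0.119). The Hk1 level was 210, 252 and 349 CPM in naive, 227, 167 and 191 CPM in C57Bl6, 115, 160 and 189 CPM in RAG2KO libraries and 138 and 169 CPM in the constitutive and the inducible line. Its RAG2KO libraries lay below the naive ones and overlapped the C57Bl6 ones. Hk1 fell by 0.81 in RAG2KO against naive (SE 0.23, adjusted p = 0.0251), a call that was lost at adjusted p of 0.0570 to 0.0853 without naive library 2 or 3 or RAG2KO library 1 or 2. The ratio of Hk2 to Hk1 counts was 0.589 to 0.687 in naive and 0.728 to 1.01 in C57Bl6 libraries, 0.273 to 0.578 in RAG2KO libraries, and 0.355 and 0.353 in the lines.

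Phosphofructokinase commits the sugar to glycolysis and has a liver-type, a platelet-type and a muscle-type gene. The liver-type gene Pfkl had 383, 418 and 386 CPM in naive, 383, 487 and 455 CPM in C57Bl6 and 303, 288 and 305 CPM in RAG2KO libraries, and 238 and 239 CPM in the constitutive and the inducible line. The levels in RAG2KO and in the lines were below those in every naive and C57Bl6 library. Pfkl fell by 0.41 in RAG2KO against naive (SE 0.12, adjusted p = 0.0287), by 0.56 against C57Bl6 (adjusted p = 0.0098) and by 0.73 in the lines (SE 0.14, adjusted p = 0.0112). The call against naive in RAG2KO was lost without any of its 6 libraries in turn (adjusted p 0.0522 to 0.113), while the call against C57Bl6 held. In the lines it was lost without naive library 2 (adjusted p = 0.0511) or the constitutive line (adjusted p = 0.0915).

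The muscle-type gene Pfkm went the other way. It had 9.36, 9.51 and 8.72 CPM in naive, 17.1, 19.1 and 13.6 CPM in C57Bl6 and 17.3, 30.3 and 22 CPM in RAG2KO libraries, and 29.3 CPM in the constitutive and 22.9 CPM in the inducible line. Every library of the other groups lay above the 3 naive libraries. Pfkm rose by 0.85 in C57Bl6 (SE 0.22, adjusted p = 0.0256), by 1.33 in RAG2KO (SE 0.22, adjusted p = 0.00233) and by 1.49 in the lines (SE 0.23, adjusted p = 0.0066). The RAG2KO call held when any library was left out. The C57Bl6 call was lost without any single naive library or C57Bl6 library 1 or 2 (adjusted p 0.0529 to 0.0796), and that in the lines without the constitutive line (adjusted p = 0.0722). The ratio of Pfkm to Pfkl counts, a pair picked after its values were seen, was 0.0226 to 0.0245 in naive, 0.0298 to 0.0446 in C57Bl6 and 0.0572 to 0.105 in RAG2KO libraries, and 0.123 and 0.0959 in the lines.

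The platelet-type gene Pfkp had 646, 626 and 817 CPM in naive, 473, 226 and 296 CPM in C57Bl6, 303, 377 and 533 CPM in RAG2KO libraries, and 360 and 502 CPM in the constitutive and the inducible line. All naive libraries lay above all others. Pfkp fell by 1.07 in C57Bl6 (SE 0.28, adjusted p = 0.0308). In RAG2KO the difference was -0.78 (SE 0.28, adjusted p = 0.0598) and in the lines -0.71 (SE 0.32, adjusted p = 0.161). The lowest level was in C57Bl6 library 2, in which the 419 tested genes of chromosome 13, where Pfkp lies, had a median of -0.70 relative to naive, against 0.04 for the genes of the other chromosomes. Without that library the difference was -0.86 (adjusted p = 0.0786), and without any naive library or C57Bl6 library 3 the adjusted p was 0.0663 to 0.0937. The part of chromosome 13 in the result was not tested beyond that. In RAG2KO the adjusted p was 0.0240, 0.0376 and 0.0330 without C57Bl6 library 1 or 2 or RAG2KO library 3. Of the other members none lies on chromosome 13.

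The enzymes of the Pfkfb family make and break a sugar bisphosphate that activates phosphofructokinase. Pfkfb3, the form with the strongest kinase activity, had 43.8, 83.4 and 104 CPM in naive, 147, 84.1 and 123 CPM in C57Bl6 and 44.4, 55.2 and 40.7 CPM in RAG2KO libraries, and 26.8 and 21.9 CPM in the constitutive and the inducible line. The lines lay below all 9 other libraries, the C57Bl6 libraries above the RAG2KO ones, and the naive libraries spread over both. Pfkfb3 was lower in RAG2KO than in C57Bl6, with a difference of -1.33 (adjusted p = 0.0145), and fell by 1.67 in the lines against naive (SE 0.36, adjusted p = 0.0194). The call in the lines was lost without naive library 2 or 3, the constitutive or the inducible line (adjusted p 0.0580 to 0.114). Against naive the difference was 0.61 in C57Bl6 (adjusted p = 0.202) and -0.72 in RAG2KO (adjusted p = 0.0991), the latter -1.01 without naive library 1 (adjusted p = 0.0197). Pfkfb4, a related form, had 2.99 to 10.4 CPM over all libraries and was called in no comparison with all 11 libraries. Without C57Bl6 library 2 it was called higher in RAG2KO than in naive (0.77, adjusted p = 0.0468) and than in C57Bl6 (1.23, adjusted p = 0.0226).

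Of the middle and lower steps of the pathway, Eno1, Aldoc and Ldhb, described below, were called in some comparisons. Gpi1, Aldoa, Tpi1, Gapdh, Pgk1, Pgam1, Pkm2 and Ldha, which take phosphorylated glucose through the triose phosphates to pyruvate and lactate, were called in none of the 4 comparisons, and their log2 differences lay between -0.47 and 0.32. Gapdh, often used as a reference gene, had 7455, 7054 and 8447 CPM in naive, 7664, 7981 and 6403 CPM in C57Bl6, 6779, 9639 and 8777 CPM in RAG2KO libraries, and 5942 and 6192 CPM in the constitutive and the inducible line. Ldha, the main lactate-forming subunit, had 3591 to 3850 CPM in naive, 3598 to 4482 CPM in C57Bl6 and 3599 to 3729 CPM in RAG2KO libraries, and 3586 and 2965 CPM in the lines. In both genes the tumour-derived libraries overlapped the naive ones, while the lines lay below all naive libraries. For Ldha the constitutive line did so only narrowly, at 3586 CPM against 3591 CPM in the lowest naive library. The lines also lay below all naive libraries in Aldoa, Pgk1 and Pkm2, but not in Gpi1, Tpi1 and Pgam1. Pkm2 had 5061 and 4669 CPM in the constitutive and the inducible line, against 6529 to 7033 CPM in naive. The summed share of the glycolysis genes in all counts was 3.33, 3.44 and 3.89% in naive, 3.32, 3.65 and 3.26% in C57Bl6 and 2.89, 3.36 and 3.50% in RAG2KO libraries, with 2.75 and 2.66% in the constitutive and the inducible line. Several of these genes have many processed copies elsewhere in the genome, so the authors' counting could have divided their reads. Pkm2 is the table's older symbol for the whole gene Pkm, so its isoforms cannot be told apart.

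Eno1, the enolase that acts in most tissues, had 3861, 3588 and 3672 CPM in naive, 2973, 3700 and 3335 CPM in C57Bl6 and 2873, 2619 and 2975 CPM in RAG2KO libraries, and 2413 and 3219 CPM in the constitutive and the inducible line. The RAG2KO libraries and the lines lay below the naive libraries. Eno1 fell by 0.39 in RAG2KO (SE 0.12, adjusted p = 0.0332). The call was lost without any of its 6 libraries in turn (adjusted p 0.0526 to 0.103). Aldoc, the aldolase form best known from the brain, had 93.8, 99 and 115 CPM in naive, 99.7, 113 and 100 CPM in C57Bl6 and 188, 237 and 372 CPM in RAG2KO libraries, and 208 CPM in the constitutive and 122 CPM in the inducible line. The RAG2KO libraries stood apart from all naive and C57Bl6 libraries. Aldoc rose by 1.37 in RAG2KO against naive (SE 0.22, adjusted p = 0.00229) and by 1.34 against C57Bl6 (adjusted p = 0.00406). Both calls held when any library was left out, and both were lost with the Rn45s share as a covariate (adjusted p = 0.175 and 0.538). The ratio of Aldoc to Aldoa counts was 0.0424 to 0.0526 in the naive and C57Bl6 libraries and 0.107 to 0.141 in the RAG2KO libraries, with 0.117 and 0.0771 in the lines.

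**Figure D2:**
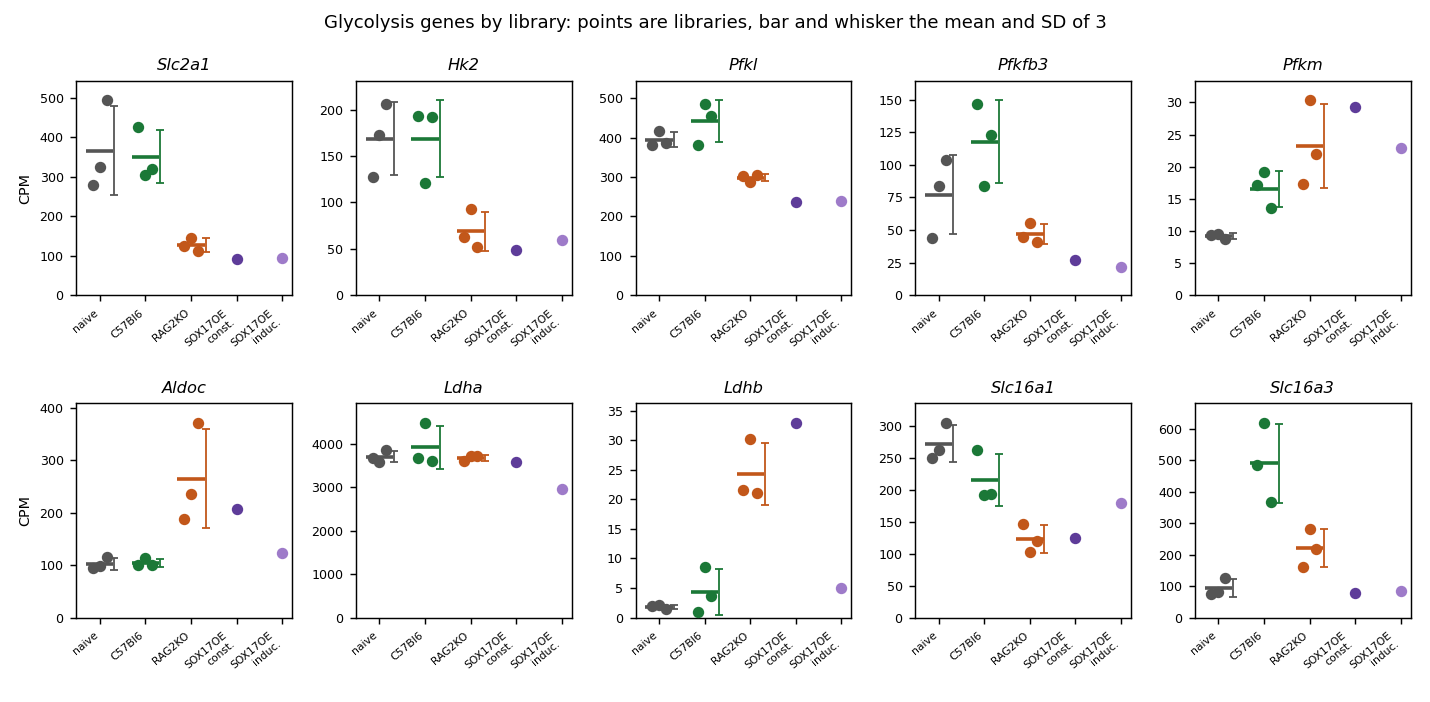
CPM of 10 glycolysis genes in each library on linear axes from 0; points are libraries, and the bar and whisker give the mean and SD of the 3 libraries of a group. Slc2a1 and Hk2 are lowest in the RAG2KO libraries and both lines, Aldoc is highest in RAG2KO library 3 at 372 CPM, and Ldha stays between 2965 and 4482 CPM in all 11 libraries.

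Ldhb encodes the lactate dehydrogenase subunit that is usually linked to the use of lactate. It had 2.0, 2.06 and 1.48 CPM in naive and 0.891, 8.58 and 3.69 CPM in C57Bl6 libraries. The RAG2KO values were 21.5, 30.2 and 21.1 CPM, with 32.9 CPM in the constitutive line and 4.95 CPM in the inducible line. All RAG2KO libraries lay above all naive and C57Bl6 libraries, and the lines differed from each other 6.64-fold. Ldhb rose by 3.72 in RAG2KO against naive (SE 0.64, adjusted p = 0.00364), a 13.1-fold difference that held when any library was left out. Against C57Bl6 it was higher by 2.47 (adjusted p = 0.0178), by 3.40 without C57Bl6 library 2, and not called without C57Bl6 library 3 (adjusted p = 0.0574). In the lines it rose by 2.79 (SE 0.66, adjusted p = 0.0286). That value was 4.15 without the inducible line and 1.42 without the constitutive line (adjusted p = 0.378), and the call was also lost without any naive library (adjusted p 0.0630 to 0.106). Against naive in C57Bl6 it was not called with all 11 libraries (1.24, adjusted p = 0.210) and was without C57Bl6 library 1 (1.73, adjusted p = 0.0125).

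The monocarboxylate transporters carry lactate and pyruvate across the cell membrane, MCT1 (Slc16a1) in both directions and MCT4 (Slc16a3) mostly outwards. Slc16a3 had 76.0, 80.8 and 126 CPM in naive, 486, 619 and 368 CPM in C57Bl6 and 161, 283 and 219 CPM in RAG2KO libraries. The lines had 78.0 CPM (constitutive) and 83.4 CPM (inducible). Neither tumour-derived group overlapped the naive libraries, the C57Bl6 libraries lay above the RAG2KO ones, and the lines lay within the naive range. Slc16a3 rose by 2.38 in C57Bl6 (SE 0.28, adjusted p = 6.29e-04) and by 1.23 in RAG2KO (SE 0.27, adjusted p = 0.00937), and was lower in RAG2KO than in C57Bl6, with a difference of -1.15 (adjusted p = 0.0152). These 3 calls held when any library was left out. In the lines the difference was -0.22 (SE 0.30, adjusted p = 0.651).

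Slc16a1 had 250, 262 and 305 CPM in naive, 263, 192 and 194 CPM in C57Bl6 and 147, 102 and 121 CPM in RAG2KO libraries, and 125 and 180 CPM in the constitutive and the inducible line. The RAG2KO libraries lay below all naive and C57Bl6 libraries. Slc16a1 fell by 1.14 in RAG2KO against naive (SE 0.18, adjusted p = 0.00181), by 0.81 against C57Bl6 (adjusted p = 0.0108) and by 0.86 in the lines (SE 0.20, adjusted p = 0.0232). The RAG2KO calls held when any library was left out, and that in the lines was lost without naive library 2 or 3 or the constitutive line (adjusted p 0.0658 to 0.245). The ratio of Slc16a3 to Slc16a1 counts was 0.304, 0.308 and 0.412 in naive, 1.85, 3.22 and 1.90 in C57Bl6 and 1.1, 2.76 and 1.82 in RAG2KO libraries. It was 0.623 in the constitutive and 0.464 in the inducible line, above the naive and below the tumour-derived libraries.

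**Figure D3:**
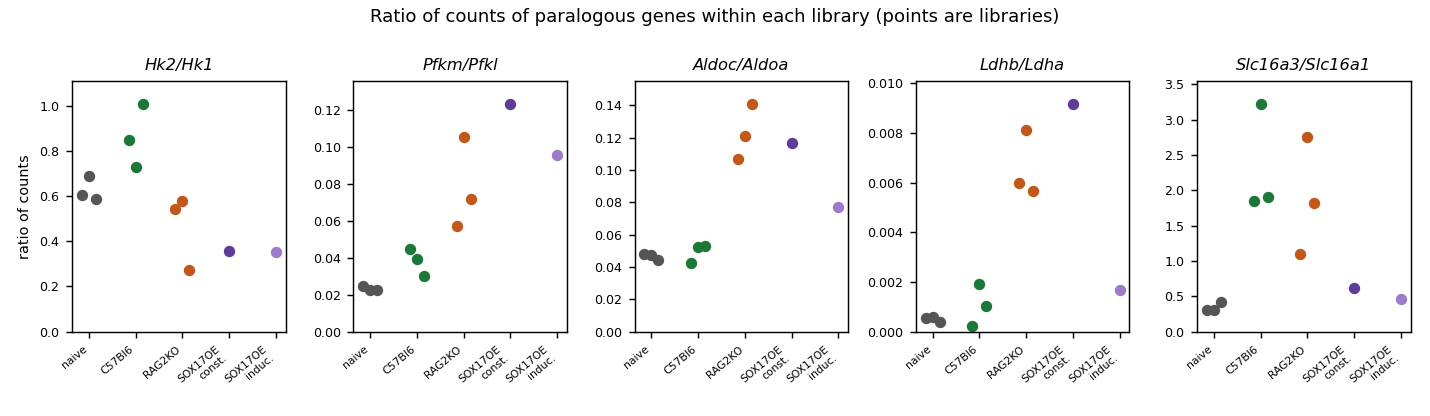
Ratio of the counts of related genes within each library, on linear axes from 0; points are libraries. The Slc16a3 to Slc16a1 ratio is 0.304 to 0.412 in naive and 1.1 to 3.22 in tumour-derived libraries, and the Aldoc to Aldoa ratio is 0.107 to 0.141 in RAG2KO libraries; the ratios are not divided by gene length and are read between libraries only.

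Pdk1 encodes a kinase that switches off pyruvate dehydrogenase and so keeps pyruvate out of the mitochondrion. Its level was 257, 289 and 295 CPM in naive, 187, 201 and 179 CPM in C57Bl6, 185, 188 and 258 CPM in RAG2KO libraries and 204 and 237 CPM in the constitutive and the inducible line. The C57Bl6 libraries and the lines lay below the naive libraries. Pdk1 fell by 0.57 in C57Bl6 (SE 0.15, adjusted p = 0.0268), a call lost without naive library 2 or 3 or C57Bl6 library 1 or 3 (adjusted p 0.0595 to 0.0970) and with the Rn45s share as a covariate (adjusted p = 0.0514). In RAG2KO the difference was -0.42 (SE 0.15, adjusted p = 0.0544), and -0.59 without RAG2KO library 3 (adjusted p = 0.0121).

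Among the genes of the oxygen sensor, Hif1a encodes the main alpha subunit of HIF. It had 164, 179 and 176 CPM in naive, 185, 140 and 176 CPM in C57Bl6 and 137, 234 and 188 CPM in RAG2KO libraries, and 204 CPM in the constitutive and 405 CPM in the inducible line. The inducible line stood above the 10 other libraries. Hif1a rose by 0.73 in the lines (SE 0.20, adjusted p = 0.0432), with 1.23 without the constitutive line (adjusted p = 0.0598) and 0.24 without the inducible line (adjusted p = 0.586). Leaving out any naive library, C57Bl6 library 3 or RAG2KO library 3 also ended the call (adjusted p 0.0594 to 0.109).

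Egln1 and Egln3 encode the prolyl hydroxylases PHD2 and PHD3, which are themselves HIF targets. Egln1 had 107, 131 and 140 CPM in naive, 115, 121 and 124 CPM in C57Bl6 and 68.8, 92.5 and 103 CPM in RAG2KO libraries, and 75.0 and 94.3 CPM in the constitutive and the inducible line. The RAG2KO libraries and the lines lay below the naive libraries. Egln1 fell by 0.51 in RAG2KO (SE 0.16, adjusted p = 0.0371), a call lost without naive library 2 or 3, C57Bl6 library 3 or RAG2KO library 1 or 2 (adjusted p 0.0534 to 0.114). Egln3 had 417, 554 and 718 CPM in naive, 385, 155 and 286 CPM in C57Bl6, 177, 326 and 331 CPM in RAG2KO libraries and 341 and 242 CPM in the constitutive and the inducible line. All naive libraries lay above all others, yet no comparison passed: the differences were -1.03 in C57Bl6 (SE 0.35, adjusted p = 0.0786), -1.02 in RAG2KO (SE 0.35, adjusted p = 0.0555) and -0.97 in the lines (SE 0.40, adjusted p = 0.136). Without C57Bl6 library 1 Egln3 was called in C57Bl6 (-1.35, adjusted p = 0.0380), and without C57Bl6 library 1 or 2 in RAG2KO (adjusted p = 0.0365 and 0.0251). Ankrd37, an ankyrin repeat gene known as a HIF target, had 28 to 58.5 CPM in 10 libraries and 9.79 CPM in the inducible line, and was called in no comparison with all 11 libraries, but was in the lines without C57Bl6 library 2 (-0.77, adjusted p = 0.0404).

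Car9 encodes carbonic anhydrase IX, an enzyme on the cell surface that handles acid and is widely used as a marker of hypoxia. It had 64.9, 81.3 and 159 CPM in naive, 31.1, 30.6 and 19.2 CPM in C57Bl6 and 9.91, 51.2 and 46.5 CPM in RAG2KO libraries. The constitutive line had 1.33 CPM and the inducible line 10.5 CPM. The naive libraries lay above all 8 others. Car9 fell by 1.92 in C57Bl6 (SE 0.55, adjusted p = 0.0459) and by 4.77 in the lines (SE 0.79, adjusted p = 0.0093), and the difference in RAG2KO was -1.50 (SE 0.55, adjusted p = 0.0655). The value in the lines was -6.26 without the inducible line (adjusted p = 0.0123) and -3.28 without the constitutive line (adjusted p = 0.139). The C57Bl6 call was lost without any of its 6 libraries or RAG2KO library 3 (adjusted p 0.0524 to 0.151) and with the Rn45s share as a covariate (adjusted p = 0.0676).

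Vegfa and Adm encode secreted factors, VEGF-A for the growth of blood vessels and adrenomedullin for their dilation. Vegfa had 222, 282 and 420 CPM in naive, 406, 279 and 302 CPM in C57Bl6, 198, 356 and 312 CPM in RAG2KO libraries, and 157 and 117 CPM in the constitutive and the inducible line. Adm had 4.72, 7.54 and 13 CPM in naive, 34.3, 7.97 and 17.9 CPM in C57Bl6, 11.9, 14.5 and 12.8 CPM in RAG2KO libraries, and 1.09 and 1.40 CPM in the lines. For both genes the lines lay below all 9 other libraries, and the tumour-derived libraries overlapped the naive ones. In the lines Vegfa fell by 1.19 (SE 0.32, adjusted p = 0.0389) and Adm fell by 2.77 (SE 0.66, adjusted p = 0.0273). Leaving out naive library 2 or 3 or either line ended both calls (adjusted p 0.0633 to 0.173), and leaving out C57Bl6 library 3 or RAG2KO library 3 ended that of Vegfa (adjusted p = 0.0534 and 0.0517). Against naive neither gene was called in C57Bl6 (0.09 for Vegfa, 1.24 for Adm) or in RAG2KO (-0.09 and 0.63). The Adm value in C57Bl6 was 0.61 without C57Bl6 library 1 and 1.62, and then called, without C57Bl6 library 2 (adjusted p = 0.0319).

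Bnip3 encodes a mitochondrial protein that marks mitochondria for removal. It had 372, 383 and 419 CPM in naive, 291, 302 and 250 CPM in C57Bl6 and 407, 671 and 653 CPM in RAG2KO libraries, and 934 CPM in the constitutive and 485 CPM in the inducible line. The C57Bl6 libraries lay below and the lines above all naive libraries, and the RAG2KO libraries overlapped the naive range at its top. Bnip3 was higher by 1.04 in RAG2KO than in C57Bl6 (SE 0.18, adjusted p = 0.00531), which held when any library was left out. Against naive it rose by 0.56 in RAG2KO (SE 0.18, adjusted p = 0.0431) and by 0.78 in the lines (SE 0.20, adjusted p = 0.0337), and the difference in C57Bl6 was -0.48 (SE 0.18, adjusted p = 0.107; called without RAG2KO library 1, adjusted p = 0.0260). The RAG2KO call against naive was lost without any naive library, C57Bl6 library 1 or 3 or RAG2KO library 2 or 3 (adjusted p 0.0504 to 0.141). The call in the lines was lost without any naive library (adjusted p 0.0716 to 0.104) and, at 0.31, without the constitutive line (adjusted p = 0.538).

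Ndrg1 encodes a stress-response protein of epithelial cells that hypoxia is known to induce. It had 787, 873 and 1503 CPM in naive, 720, 316 and 328 CPM in C57Bl6 and 152, 204 and 239 CPM in RAG2KO libraries, and 303 and 182 CPM in the constitutive and the inducible line. The naive libraries lay above all others, and the RAG2KO libraries below all naive and C57Bl6 libraries. Ndrg1 fell by 2.41 in RAG2KO (SE 0.38, adjusted p = 0.00231), a 5.31-fold difference that held when any library was left out, and by 2.17 in the lines (SE 0.43, adjusted p = 0.0169), where either line alone was not called (adjusted p 0.0683 and 0.0915). In C57Bl6 the difference was -1.21 (SE 0.36, adjusted p = 0.0510), and -1.71 without C57Bl6 library 1 (adjusted p = 0.00573). RAG2KO against C57Bl6 gave -1.20 (adjusted p = 0.0402), but -0.70 without C57Bl6 library 1 (adjusted p = 0.105). That call was also lost without naive library 1 or 2 or any RAG2KO library (adjusted p 0.0522 to 0.115).

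Ero1l, now named Ero1a, encodes an oxidase that forms disulfide bonds in the endoplasmic reticulum. It had 1407, 1690 and 2359 CPM in naive, 1621, 380 and 419 CPM in C57Bl6 and 229, 560 and 919 CPM in RAG2KO libraries, and 384 and 532 CPM in the constitutive and the inducible line. C57Bl6 library 1 lay within the naive range and all other libraries below it, and no comparison was called with all 11 libraries: the differences were -1.17 (SE 0.62, adjusted p = 0.238), -1.68 (SE 0.63, adjusted p = 0.0717) and -2.01 (SE 0.74, adjusted p = 0.101) in C57Bl6, RAG2KO and the lines. Without C57Bl6 library 1 all 3 were called, at -2.19 (adjusted p = 0.0231), -1.67 (adjusted p = 0.0195) and -2.01 (adjusted p = 0.0328). P4ha1 and P4ha2, subunits of the collagen prolyl hydroxylases, and Kdm3a, a histone demethylase, were called in no comparison either. P4ha1 had 39.0 to 99.6 CPM, P4ha2 48.9 to 115 CPM and Kdm3a 63.8 to 128 CPM over the 11 libraries, and their differences against naive lay between -0.67 and 0.05.

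**Figure D4:**
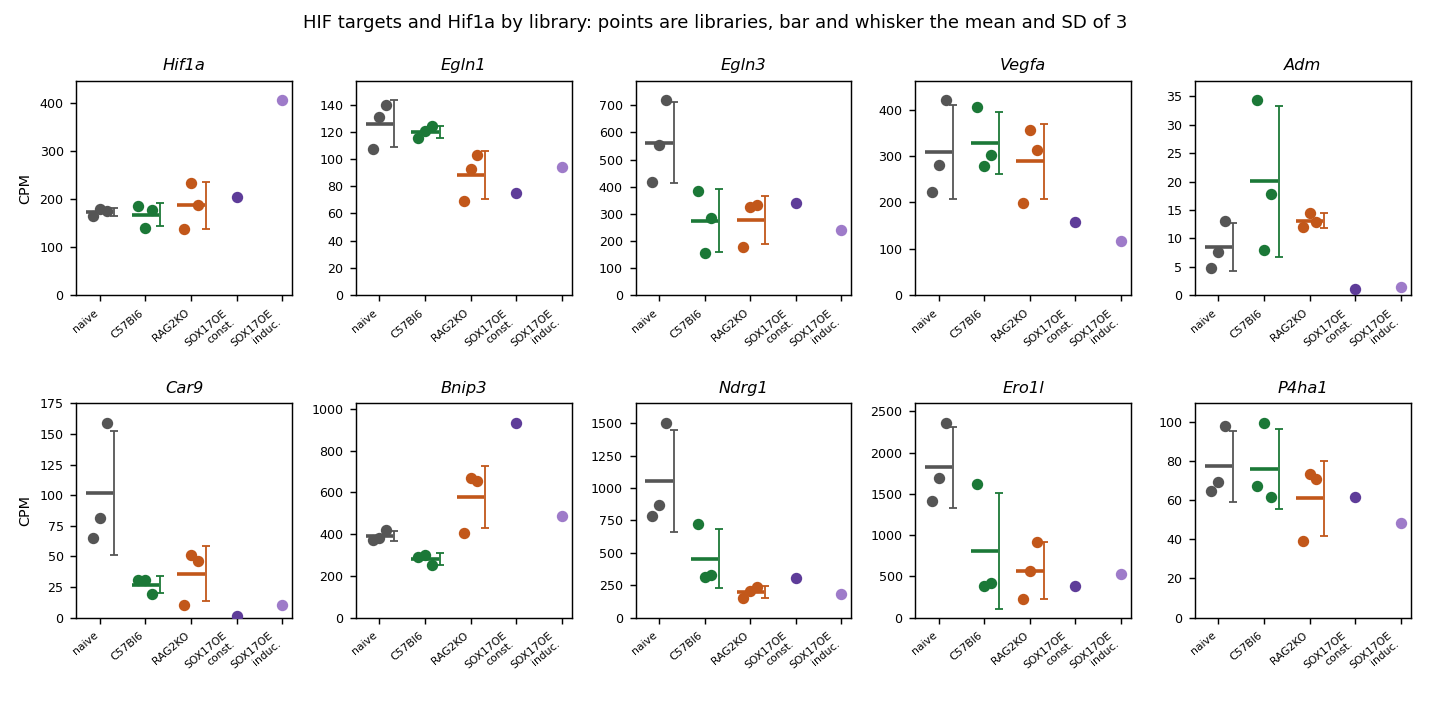
CPM of Hif1a and 9 hypoxia-response genes in each library on linear axes from 0; points are libraries, and the bar and whisker give the mean and SD of the 3 libraries of a group. Car9, Egln3 and Ndrg1 are highest in the naive libraries, Hif1a is highest in the inducible line at 405 CPM and Bnip3 in the constitutive line at 934 CPM, and C57Bl6 library 1 stands at 1621 CPM of Ero1l beside 380 and 419 CPM in the other C57Bl6 libraries.

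Libraries of the same group differed from each other along the hypoxia-response genes. Naive library 3 was the highest of the naive libraries in 12 of the 13 hypoxia-response genes and 16 of the 22 tested glycolysis genes, where it was highest in 40.5% of all genes. Naive library 1 was the lowest in 13 of 13 and 14 of 22, where it was lowest in 37.9% of all genes. The median ratio of naive library 3 to naive library 1 was 1.52 for the hypoxia-response genes, 1.19 for the glycolysis genes and 0.997 over all genes. RAG2KO library 1 was the lowest of its group in 11 of 13 and 15 of 22 (36.1% of all genes), and C57Bl6 library 1 was the highest of its group in 9 of 13 and 9 of 22 (36.1% of all genes). C57Bl6 library 2 was the highest in 3 of 13 and 13 of 22 (37.4% of all genes). In C57Bl6 library 1, Ero1l stood 4.06-fold, Adm 2.65-fold and Ndrg1 2.24-fold above the mean of the other C57Bl6 libraries. The median ratio of the highest to the lowest library was 1.52, 1.62 and 1.70 for the hypoxia-response genes in naive, C57Bl6 and RAG2KO, 1.22, 1.29 and 1.42 for the glycolysis genes, and 1.26, 1.33 and 1.35 over all genes. Oxygen, density and time in culture are not given in the labels, and their part in this spread was not tested.

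The constitutive and inducible lines differed from each other in some of these genes, with 1 library each and hence no test. Ldhb was 6.64-fold, Ankrd37 5.16-fold and Bnip3 1.92-fold higher in the constitutive line. Car9 was 7.92-fold and Hif1a 1.99-fold higher in the inducible line. The median of the hypoxia-response genes relative to naive was -0.74 in the constitutive and -1.18 in the inducible line, and that of the glycolysis genes -0.33 and -0.36. In the naive libraries the first of these medians was -0.24, -0.04 and 0.36, in C57Bl6 -0.13, -0.31 and -0.31, and in RAG2KO -0.59, 0.19 and -0.13.

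**Figure D5:**
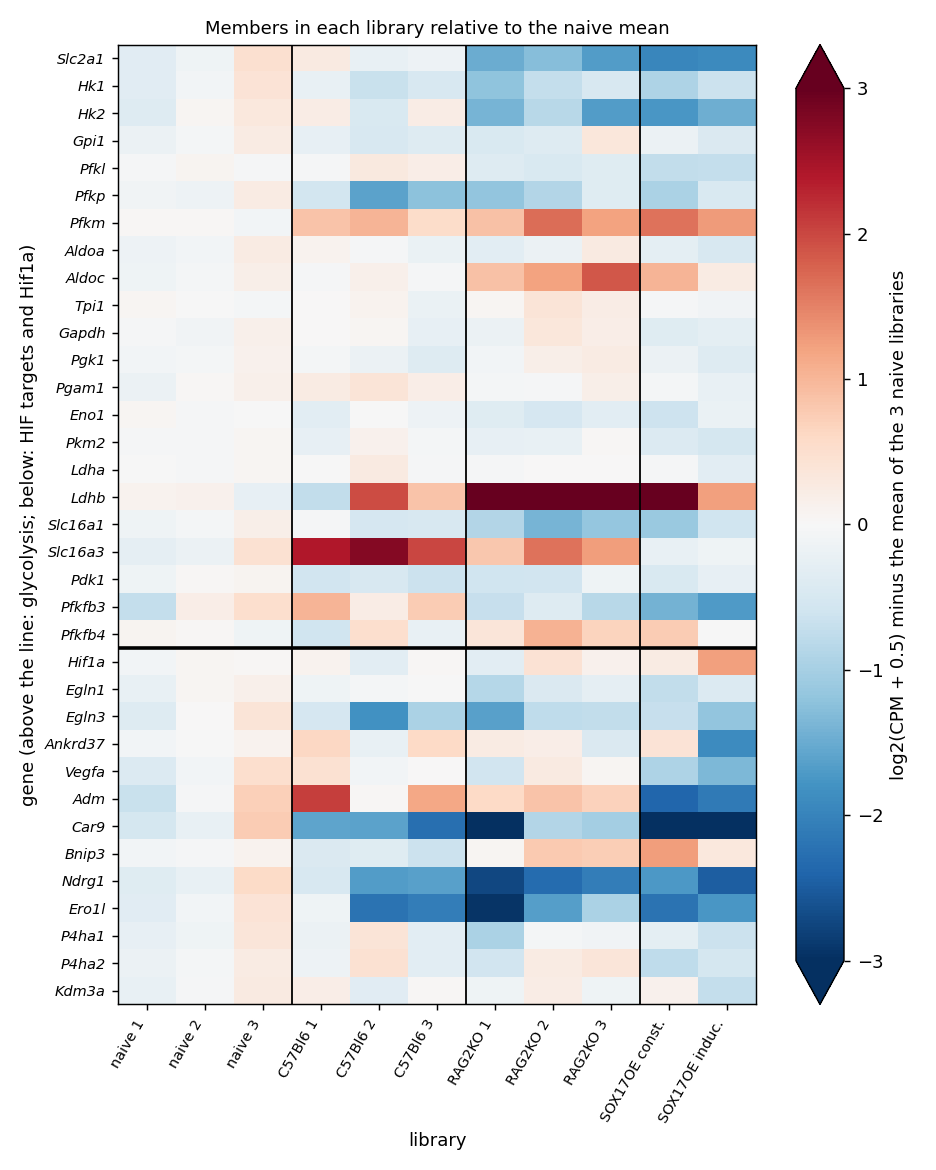
Log2(CPM + 0.5) of each tested gene in each library minus the mean of the 3 naive libraries, glycolysis genes above the thick line and hypoxia-response genes below it; the colour scale ends at -3 and 3. Slc16a3 is deepest red in the C57Bl6 libraries, Ldhb is deepest red in all RAG2KO libraries and the constitutive line, and Car9 is blue in every library outside the naive group.

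Around these members, 45 other genes of glucose metabolism and 48 other genes of the hypoxia response were read as lists; 39 and 46 of them were tested. Against naive, 9 of the 39 glucose genes were called in C57Bl6 (2 higher, 7 lower), 10 in RAG2KO (3 higher, 7 lower) and 3 in the lines (1 higher, 2 lower), that is 23.1%, 25.6% and 7.69% beside the 15.3%, 29.2% and 12.7% of all genes. RAG2KO against C57Bl6 gave 6 calls (5 higher, 1 lower), or 15.4% beside 24% of all genes. Gpd1, which links glycolysis to glycerol and lipid synthesis, had 1.0, 1.67 and 0.715 CPM in naive, 10.5, 6.96 and 9.45 CPM in C57Bl6, 17.3, 16.4 and 18.7 CPM in RAG2KO libraries, and 6.05 and 3.15 CPM in the constitutive and the inducible line. Every library outside the naive group lay above the naive ones. Gpd1 rose by 2.97 in C57Bl6 (SE 0.31, adjusted p = 3.34e-04), by 3.93 in RAG2KO (SE 0.32, adjusted p = 8.16e-05) and by 1.93 in the lines (SE 0.33, adjusted p = 0.00946), the last lost without the constitutive line (1.46, adjusted p = 0.121) and with the Rn45s share as a covariate (adjusted p = 0.0662). Fbp2 is a fructose bisphosphatase that runs the phosphofructokinase step backwards. It had 156, 148 and 155 CPM in naive and 64.6, 44.2 and 65.1 CPM in C57Bl6 libraries. Fbp2 fell by 1.40 in C57Bl6 (SE 0.22, adjusted p = 0.00269). The RAG2KO libraries, at 113, 61.9 and 81.5 CPM, also lay below the naive ones. So did the constitutive and the inducible line, at 113 and 125 CPM. Like Pfkp, Fbp2 lies on chromosome 13, whose genes stood low in C57Bl6 library 2, and without that library it fell by 1.24 (adjusted p = 0.00993). Pck2, the mitochondrial carboxykinase of glucose synthesis, fell by 1.14 in RAG2KO (SE 0.21, adjusted p = 0.00468). Its level was 157, 202 and 189 CPM in naive, 122, 104 and 115 CPM in C57Bl6 and 70.5, 63.1 and 116 CPM in RAG2KO libraries. The constitutive line had 72.0 CPM and the inducible line 193 CPM of Pck2. The C57Bl6 libraries also lay below the naive ones, and RAG2KO library 3 lay within the C57Bl6 range. Pklr, the liver-type pyruvate kinase, had 21.9, 21.5 and 22.5 CPM in naive libraries, 0.288 CPM in the constitutive and 5.19 CPM in the inducible line, and fell by 4.15 in the lines (SE 0.91, adjusted p = 0.0217). It had 13.4, 1.80 and 3.99 CPM in C57Bl6 and 9.03, 9.28 and 22.4 CPM in RAG2KO libraries, so C57Bl6 libraries 2 and 3 also lay below the inducible line. With the Rn45s share as a covariate the RAG2KO call of Pck2 was lost (adjusted p = 0.209) and that of Gpd1 was not (adjusted p = 0.0376). The Pklr value was -6.22 without the inducible line and -2.08 without the constitutive line (adjusted p = 0.303), and the call was also lost without naive library 2 or 3 (adjusted p 0.0598 and 0.0640).

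Of the 46 other hypoxia-response genes 7 were called in C57Bl6 (3 higher, 4 lower), 16 in RAG2KO (5 higher, 11 lower), 10 in RAG2KO against C57Bl6 (4 higher, 6 lower) and 10 in the lines (3 higher, 7 lower), which is 15.2%, 34.8%, 21.7% and 21.7% beside 15.3%, 29.2%, 24% and 12.7% of all genes. Car12, a carbonic anhydrase of the cell surface like Car9, had 1.14, 1.58 and 1.14 CPM in naive and 5.24, 13 and 5.15 CPM in C57Bl6 libraries, and rose by 2.58 in C57Bl6 (SE 0.49, adjusted p = 0.00687) where Car9 fell. Angptl4, a secreted regulator of lipid uptake, had 0 to 3 reads in each naive library and 6.71, 5.67 and 2.53 CPM in C57Bl6 and 0.944, 3.33 and 0.748 CPM in RAG2KO libraries. Both were called higher (adjusted p = 0.00256 and 0.00729), with no fold given for so few naive reads. Ak4, an adenylate kinase of the mitochondrion, had 149, 195 and 225 CPM in naive and 71.6, 72.1 and 95.4 CPM in RAG2KO libraries. It had 103 and 61.6 CPM in the constitutive and the inducible line. The C57Bl6 libraries, at 118, 148 and 106 CPM, also lay below the naive ones. Ak4 fell by 1.25 in RAG2KO (SE 0.19, adjusted p = 0.00181) and by 1.25 in the lines (SE 0.22, adjusted p = 0.0101), the last lost without the inducible line (adjusted p = 0.0692) and with the Rn45s share as a covariate (adjusted p = 0.0590). Zfp395, a zinc finger gene, was lower in RAG2KO than in C57Bl6, with a difference of -1.66 (SE 0.22, adjusted p = 0.00261), and Fam162a, a mitochondrial cell death gene, was higher by 1.04 (SE 0.16, adjusted p = 0.00356). Against naive, Fam162a was lower by 0.67 in C57Bl6, a call lost without naive library 1 or 2 or C57Bl6 library 1 or 3 (adjusted p 0.0504 to 0.0701). Rbx1, a subunit of the ligase that acts with VHL, rose by 0.70 in RAG2KO (SE 0.15, adjusted p = 0.00734). In the lines Rbx1 rose by 0.72, a call lost without naive library 2 or 3 or the constitutive line. With the Rn45s share as a covariate both the Fam162a call in C57Bl6 and the Rbx1 call in the lines were lost (adjusted p = 0.0521 and 0.0990). The other alpha subunit genes of HIF were named after their values were seen. Epas1 had 26.2, 28.2 and 55.0 CPM in naive and 9.77, 17.6 and 11.4 CPM in RAG2KO libraries. Its C57Bl6 libraries, at 26.7, 12.6 and 18.1 CPM, overlapped both the naive and the RAG2KO ones. The constitutive and the inducible line had 34.4 and 26.2 CPM of Epas1, within the naive range. The Epas1 differences of -0.93 in C57Bl6 against naive and -0.57 in RAG2KO against C57Bl6 were not called. Hif3a had 10.5, 23.7 and 36.7 CPM in naive and 3.10, 3.91 and 4.74 CPM in RAG2KO libraries. Epas1 fell by 1.50 in RAG2KO (SE 0.37, adjusted p = 0.0148), and Hif3a fell by 2.59 (SE 0.65, adjusted p = 0.0171). The latter call was lost without naive library 3 or RAG2KO library 1 or 2 (adjusted p 0.0556 to 0.0569). Hif3a was also low outside RAG2KO, with 2.42 and 3.15 CPM in the constitutive and the inducible line. C57Bl6 libraries 2 and 3 had 3.70 and 2.83 CPM, and C57Bl6 library 1 lay within the naive range. In the lines Hif3a fell by 3.10, a call lost without naive library 2 or 3 or either line and with the Rn45s share as a covariate. In C57Bl6 the Hif3a difference of -1.79 was not called, but was at -2.86 without C57Bl6 library 1 (adjusted p = 0.00554). With the Rn45s share as a covariate the RAG2KO calls of Ak4, Angptl4, Rbx1, Epas1 and Hif3a against naive were lost (adjusted p 0.263 to 0.358), and so were those of Zfp395 and Fam162a against C57Bl6 (adjusted p = 0.549).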

How the data were processed

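Poly(A)-selected RNA of 11 organoid libraries was made into directional libraries, per the labels' protocols. The deposited table holds expected counts per gene; per the submitters' processing notes the tools were Bowtie and RSEM and the genome build was mm9. Versions, the annotation and the strand setting are each not given in the sources used here. Expected counts were rounded and tested with edgeR 4.0.16 (R 4.3.3): TMM scaling, filterByExpr, robust quasi-likelihood F test over all 11 libraries in 5 groups, two-sided, Benjamini-Hochberg adjustment over 13720 genes, called under 0.05. CPM are counts scaled to the TMM-scaled library size. Other scalings and filters, DESeq2 1.42.0, limma 3.58.1 voom, an Rn45s covariate, a replicate block and leaving out each library were run as alternatives. The test code was checked on simulated data. The named genes are the 36 members and up to 4 called genes of each further list by smallest adjusted p, with others marked in the text. Members and lists were chosen with earlier results of these data known. Replicate pairs differed beyond sampling noise. Promoter windows came from RefSeq (GRCm38.p6), matched by symbol.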

Additional observations from a re-analysis of the deposited data

Results flagged for a closer look

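For 10 of the 35 tested members the difference between the RAG2KO and the C57Bl6 tumour-derived organoids was itself tested and passed at an adjusted p under 0.05 in edgeR's quasi-likelihood test. That was 36.4% of the glycolysis genes and 15.4% of the hypoxia-response genes, where 24% of all genes passed. On the log2 scale, RAG2KO minus C57Bl6, the values were -1.46 for Slc2a1, -1.29 for Hk2, -0.56 for Pfkl, -0.81 for Slc16a1, -1.15 for Slc16a3, -1.33 for Pfkfb3 and -1.20 for Ndrg1. They were 1.34 for Aldoc, 2.47 for Ldhb and 1.04 for Bnip3. The Ndrg1 call was lost in 6 of 11 fits that left out 1 library (adjusted p 0.0522 to 0.115) and that of Ldhb without C57Bl6 library 3 (adjusted p = 0.0574). The Rn45s share, 6.56 to 8.54% in RAG2KO and 2.21 to 3.77% in C57Bl6 libraries, did not overlap between the groups either, and the recipient and this share cannot be told apart. With the share as a covariate none of the 10 was called (adjusted p 0.514 to 0.750).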

How the results depend on the processing

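Of the 41 member calls over 4 comparisons, 2 held at every alternative run (Slc16a3 in C57Bl6, Slc2a1 in the SOX17OE lines), no call reversed, and 26 of 99 uncalled results passed at 1 or more alternatives. DESeq2 size factors, a filter of 1 CPM in 3 libraries, the DESeq2 Wald test and voom kept all 41 calls, library totals 39, upper quartile scaling 38, no filter 38 and a fit of only the groups compared 38. The Rn45s covariate kept 5 of 41, with the sign kept in all 41. The cause was not tested. The covariate brought the called counts in RAG2KO against naive to 0 of 10 glycolysis, 0 of 3 hypoxia-response and 148 of 4010 of all genes, in RAG2KO against C57Bl6 to 0 of 8, 0 of 2 and 2 of 3295, in the lines to 1 of 7, 1 of 6 and 267 of 1741, and the hypoxia-response count in C57Bl6 from 1 to 0. That last count was 2 with upper quartile scaling, library totals, the 1 CPM filter or only the groups compared, 0 with no filter, 3 with DESeq2 and 6 with voom. Voom gave 4086 of all genes in C57Bl6, and 11 glycolysis, 10 hypoxia-response and 3825 of all genes in the lines. In RAG2KO against naive voom gave 6 hypoxia-response genes, and its count over all genes there is not given here. Where no count over all genes stands beside a count of members, that count is not read as a result about the members. In the lines DESeq2 gave 2711 of all genes, only the groups compared 11, 11 and 2630, and both lines as 1 group of 2 gave 3 hypoxia-response genes and 864 of all genes. In RAG2KO against C57Bl6, no filter and only the groups compared gave 1 hypoxia-response gene.

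Leaving out 1 library gave 1 to 4 glycolysis, 0 to 3 hypoxia-response and 1030 to 2328 of all genes in C57Bl6 against naive, 7 to 12, 1 to 4 and 2041 to 4184 in RAG2KO against naive, 7 to 9, 1 to 2 and 1857 to 3311 in RAG2KO against C57Bl6, and 1 to 8, 0 to 7 and 85 to 1931 in the lines. The cause of these ranges was not tested. Samples that share a replicate number did not deviate together (correlations -0.19 to 0.18), so the numbers are not taken to pair them. A replicate block kept 23 of 28 calls, added 1 and gave 0 hypoxia-response genes in C57Bl6. The lines carry 1 library each, and genes with few reads, such as Eno2, could not be tested at this depth.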
